A study of Mus musculus with 4 samples.

Results

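Aoc1 and 8 other genes of polyamine metabolism (Odc1, Amd1, Srm, Sms, Oaz1, Azin1, Sat1 and Smox) were followed through the lineages and stages of the mouse mammary epithelium. They were chosen by name from the 27998 genes listed for each cell, and all 9 were found. Aoc1 itself was chosen because its value was high in mature luminal cells of puberty, so that value is given as a description and without a test. Single cells of FVB/NJ female mice were profiled on a droplet platform that counts unique molecular identifiers (UMIs), 1 for each captured RNA molecule. Epithelium was enriched by sorting cells that carried CD24 and lacked Ter119, CD31 and CD45, the Lin markers of red blood cells, endothelium and leukocytes. The puberty library came from glands at 5 weeks (6 mice pooled), and the adult libraries from glands at 10 weeks in estrus or in diestrus (2 mice pooled for each phase). The labels name no transgene or treatment.

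Polyamines (putrescine, spermidine and spermine) are small positively charged molecules that dividing cells need for translation and for packing nucleic acids. Odc1 (ornithine decarboxylase) makes putrescine from ornithine, Amd1 (S-adenosylmethionine decarboxylase) supplies the aminopropyl donor, and Srm and Sms (spermidine and spermine synthase) use it to extend the chain. Oaz1 (antizyme 1) sends ornithine decarboxylase to the proteasome, and Azin1 (antizyme inhibitor 1) binds antizyme and blocks this. Sat1 acetylates spermidine and spermine for export or breakdown, Smox oxidizes spermine, and Aoc1 (diamine oxidase) is a secreted enzyme that oxidizes putrescine and histamine.

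There was 1 library a stage, and the puberty library was present as 2 count tables that shared 5387 barcodes, or 99.24% of those of the deeper table, which was used here. No other pair of tables shared more than 24 barcodes. The tables held 5428 barcodes and 25365324 UMIs for puberty, 2729 and 10962454 for estrus, and 2439 and 11868593 for diestrus, with a median of 3236 to 4103 UMIs a cell. Cells were placed in basal, luminal progenitor (LP), mature luminal (ML) and intermediate luminal (Lum Int) classes from signatures that left out every gene of polyamine metabolism described here. In every library, 8 of 8 markers of each class were highest in their own class, which their use in seeding the classes favours. Puberty had 1133 basal, 1771 LP and 2184 ML cells, estrus 1306, 473 and 782, and diestrus 1050, 564 and 681. Immune markers (5 genes) summed to 0 to 1.47 CPM (UMI counts scaled to the same total in every class). Endothelial markers (5 genes) summed to 3.88 to 21.83 CPM, highest in puberty ML cells, where 3 of 5 were at 0. Fibroblast markers (5 genes) summed to 249.33 to 292.32 CPM in basal cells with at most 1 at 0, to 1.84 to 4.35 CPM in LP cells with 3 at 0, and to 250.46 to 707.94 CPM in ML cells. ML cells of estrus had 3 of 5 at 0 and those of diestrus 4 of 5, so a single gene gave the 707.94 CPM of diestrus. In ML cells of puberty the fibroblast markers summed to 327.29 CPM with 1 of 5 at 0, and their part in the results was not tested. Because 1 library stood for each stage, the stage could not be told apart from its library, and differences between stages were not tested. Levels below are for the UMIs summed over a class, and intervals on them cover counting error only.

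Aoc1 RNA was found in puberty, in ML and Lum Int cells and in cells between the basal and luminal signatures, and almost nowhere else. In ML cells of puberty it had 1148 UMIs, or 100.6 CPM (95% Poisson interval, 94.9 to 106.6). Lum Int cells of puberty had 83 UMIs (54.3 CPM), and cells between the basal and luminal signatures (mixed cells) had 28 UMIs (39.6 CPM). Both were deeper than ML cells of puberty, with a median of 6279 UMIs in Lum Int and 6824 in mixed cells against 4669. Doublets with ML cells among them were not tested. Basal and LP cells of puberty had 1 UMI each, or 0.245 and 0.132 CPM. These basal and LP levels were 0.243% and 0.131% of the ML level, below the corresponding percentages for each of the 8 ML marker genes (0.504 to 8.90% in basal and 0.855 to 16.3% in LP cells), so expression there was not told apart from free RNA, doublets or misplaced cells, which were not tested.

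In the adult libraries Aoc1 was near the limit of detection. ML cells of estrus had 4 UMIs (1.07 CPM, 0.293 to 2.75) and ML cells of diestrus had 10 UMIs (2.92 CPM, 1.40 to 5.37). Lum Int cells had 0 UMIs in estrus and 2 in diestrus. Basal and LP cells had 0 UMIs in both. The order of levels was therefore ML, Lum Int and mixed cells of puberty, then Lum Int and ML cells of diestrus, ML cells of estrus, and basal and LP cells of puberty with 1 UMI each. The counting intervals of Lum Int and mixed cells of puberty overlapped, as did those of the adult ML sums. The puberty ML level was 93.6 times that of estrus (36.5 to 344) and 34.5 times that of diestrus (18.7 to 72.0). In the shallower table of the same puberty library Aoc1 had 727 UMIs in ML cells (96.7 CPM), and 2 and 3 UMIs in basal and LP cells.

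**Figure D1:**
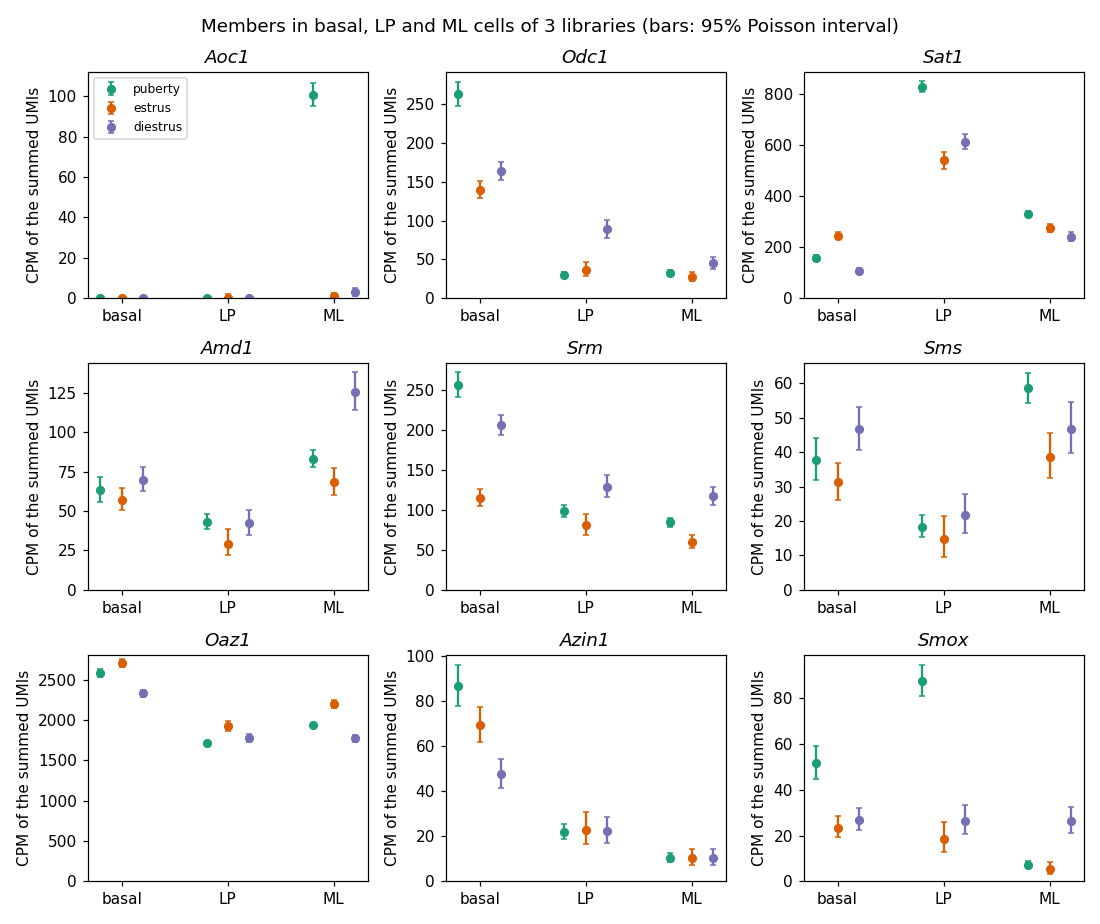
Level of each gene in basal, LP and ML cells (x axis) as CPM of the UMIs summed over the class (y axis, from 0), with 1 point for each of the 3 libraries and a bar for the 95% Poisson interval. Aoc1 stood at 100.6 CPM in ML cells of puberty and at no more than 2.92 CPM in the other 8 sums, while Odc1 and Azin1 were highest in basal cells and Sat1 was highest in LP cells in every library.

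Within the ML cells of puberty, Aoc1 was concentrated in few cells. A UMI of Aoc1 was present in 212 of 2184 ML cells (9.71%, 95% Wilson interval 8.54 to 11.02), against 0.0883% of basal and 0.0565% of LP cells. The 71 cells with at least 5 UMIs were 3.25% of ML cells and held 74.7% of the Aoc1 UMIs, and the highest count in a cell was 40. Of 537 genes within 1.25 times the level of Aoc1 in these cells, only 2 were found in a smaller percentage of cells, and their median was 31.4%. Cells with Aoc1 were deeper, with a median of 5943 UMIs against 4589.5 in ML cells without it. When every cell was thinned to 2000 UMIs, the share was 7.37% of the 2035 puberty ML cells that were deep enough, 0.140% of 714 estrus cells and 0.487% of 616 diestrus cells.

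Clusters of puberty cells, made without Aoc1 or any other polyamine gene, divided the ML cells unevenly for this RNA. Cluster 1 of puberty (348 cells) had 904 Aoc1 UMIs at 484 CPM and a UMI in 35.9% of cells. The other 5 ML clusters of puberty had 6.07 to 58.9 CPM. The genes that led cluster 1 over the other ML clusters, apart from Aoc1, were Slc5a5 (the sodium-iodide symporter, 6.52-fold), Ido1 (a tryptophan-degrading enzyme, 6.22-fold), Col6a3 (a collagen VI chain, 6.12-fold), Tmem86a (5.72-fold) and Fxyd2 (a regulator of the sodium pump, 4.94-fold). An ML cluster with Fxyd2 and Ido1 among its leading genes was present in each adult library, a likeness seen after the values were known. Slc5a5, Col6a3 and Tmem86a were not among the leading genes of these adult clusters. Other leading genes were shared with other puberty clusters, Sftpd in estrus with cluster 5, and Ccl5 and Clca3a2 in diestrus with clusters 13 and 6. The adult clusters were therefore not matched to cluster 1. The estrus cluster had 0 Aoc1 UMIs in 204 cells. This allows up to 1.47% of cells with a UMI and sets no limit on cells that express the gene at this depth. The diestrus cluster had 8 UMIs in 319 cells (6.61 CPM).

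ML cells of puberty with Aoc1 carried other polyamine RNAs at somewhat different levels, described here without a test because these cells were sorted by a member. Sat1 was 190 CPM in cells with Aoc1 and 350 CPM in cells without it (ratio 0.541, counting interval 0.474 to 0.616). Odc1 was also lower in cells with Aoc1, at 22.3 against 33.7 CPM (ratio 0.660, 0.435 to 0.965). Amd1 was 108 against 80.0 CPM and Srm 105 against 81.5 CPM. Arg1, the arginase that makes ornithine, was 279 against 185 CPM (ratio 1.505, 1.34 to 1.68). The hormone receptors Esr1 (23.0 against 25.3 CPM) and Prlr (908 against 891 CPM) had ratios whose counting intervals included 1, and Pgr was 64.5 against 47.5 CPM. Cells scored as cycling were 12.3% of ML cells with Aoc1 and 8.37% of those without it, and their part in these ratios was not tested.

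**Figure D2:**
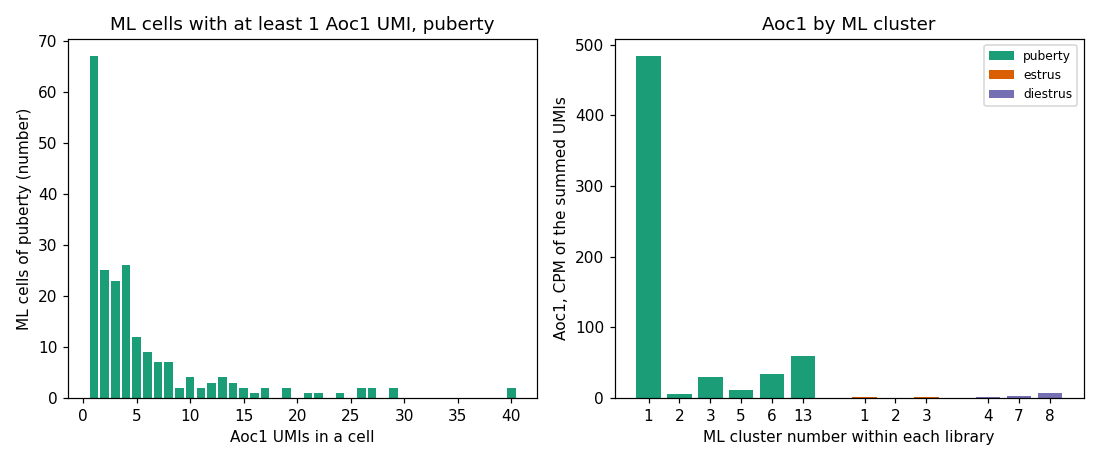
Left, number of puberty ML cells (y axis) by their count of Aoc1 UMIs (x axis), for the 212 cells with at least 1; right, Aoc1 level as CPM (y axis) in each ML cluster (x axis, cluster numbers within a library), coloured by library. Most positive cells had few UMIs, a tail reached 40, and cluster 1 of puberty stood at 484 CPM against 0 to 58.9 CPM in every other ML cluster.

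Over the 9 sums (3 classes in 3 libraries), the genes whose level followed Aoc1 most closely among 5048 genes with a mean of at least 20 CPM were Agps (Pearson r = 0.905), Gng12 (0.902), Tmed3 (0.890), Sprr1a (0.872) and Sprr2a3 (0.862). All 5 were highest in ML cells of puberty. Agps, an enzyme of ether lipid synthesis, was 184 CPM there against 50.8 and 52.3 CPM in adult ML cells, so its fall to the adult was far smaller than that of Aoc1. The coefficient is set mostly by the puberty ML value that chose Aoc1, so it ranks genes by a peak in that sum. Gng12, for example, had 117 and 94.3 CPM in adult ML cells, close to its 89.6 and 108 CPM in adult basal cells. The 9 sums share libraries.

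The sequence before the annotated starts is shown for Aoc1, the gene concentrated in few cells, and for Odc1 and Sat1, members whose lineage and cycling differences are given below. Each run is the 250 bases before a RefSeq start on GRCm38.p6, written 5′ to 3′ on the gene's strand in lower case, with matches to the GC box GGGCGG on either strand in capitals. No measurement here reads a promoter, and the sequences are context only.

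Aoc1 start 1 (chr6:48895005-48895254, plus strand): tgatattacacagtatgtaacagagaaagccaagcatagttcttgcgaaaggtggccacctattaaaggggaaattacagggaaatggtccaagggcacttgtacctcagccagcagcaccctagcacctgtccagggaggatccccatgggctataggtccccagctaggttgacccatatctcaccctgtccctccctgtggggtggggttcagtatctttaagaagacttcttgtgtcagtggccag
Aoc1 start 2 (chr6:48904736-48904985, plus strand): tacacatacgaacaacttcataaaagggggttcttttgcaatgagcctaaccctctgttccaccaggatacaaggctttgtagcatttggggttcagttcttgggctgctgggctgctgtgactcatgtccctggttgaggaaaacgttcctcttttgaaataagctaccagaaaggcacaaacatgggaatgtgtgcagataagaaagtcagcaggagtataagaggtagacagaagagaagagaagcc
Odc1 (chr12:17544623-17544872, plus strand): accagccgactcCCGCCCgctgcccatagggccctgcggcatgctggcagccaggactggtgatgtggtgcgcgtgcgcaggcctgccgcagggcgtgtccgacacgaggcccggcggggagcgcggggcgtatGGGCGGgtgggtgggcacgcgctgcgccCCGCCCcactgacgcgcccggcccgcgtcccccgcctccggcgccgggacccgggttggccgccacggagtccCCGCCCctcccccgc
Sat1 (chrX:155216450-155216699, minus strand): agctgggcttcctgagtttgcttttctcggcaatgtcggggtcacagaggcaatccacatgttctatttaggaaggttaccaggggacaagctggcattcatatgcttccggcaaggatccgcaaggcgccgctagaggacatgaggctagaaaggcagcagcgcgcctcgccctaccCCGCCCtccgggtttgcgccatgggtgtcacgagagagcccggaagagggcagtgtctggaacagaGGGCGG

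In GENCODE on GRCm38, Aoc1 spans chr6:48872896-48909188 on the plus strand, so both RefSeq starts lie inside the annotated gene. Odc1 spans chr12:17544794-17551505 on the plus strand and Sat1 chrX:155213132-155216449 on the minus strand. RefSeq gave promoters for 7 of the 9 genes, with 2 starts each for Aoc1 and Sms. In the 300 bases from 250 before to 50 after the start, the Aoc1 windows had 53.0 and 47.3% G and C, 3 and 4 CG pairs and no GC box. The Odc1 window had 78.0% G and C (higher than 98.1% of 32851 promoters), 42 CG pairs and 4 GC boxes, and the Smox window had 71.0%, 27 CG pairs and 6 GC boxes. The second Sms window had 74.3% G and C and 4 GC boxes, Sat1 had 2 GC boxes and Amd1 had 1, and the first Sms window and Oaz1 had none. The GC box was in 35.7% of all promoters. The E-box CACGTG, in 7.15% of promoters, was found once, at position -196 from a start of Sms. The full palindromic estrogen response element, in 0.07% of promoters, was in none of these windows.

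The question of which lineage carries the pathway was tested in the adult libraries, which the choice of Aoc1 had not used. Of the 8 genes other than Aoc1, 4 were called between basal and LP cells (24.6% of 11094 genes tested were called), 3 between basal and ML cells (34.7%) and 4 between LP and ML cells (18.9%), at an adjusted p under 0.01 by edgeR's quasi-likelihood test with the library as a block. Aoc1 did not pass the filter on low counts. The median size of the 8 log2 differences was 0.83 between basal and LP, 0.72 between basal and ML and 0.99 between LP and ML cells, against 0.53, 0.64 and 0.51 over all genes. The test rested on 6 sums from 2 libraries. Without the block on library only Azin1 between basal and ML cells was called.

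Odc1 and Azin1, which raise ornithine decarboxylase activity, were highest in basal cells. Odc1 was 140 and 164 CPM in basal, 36.5 and 88.9 CPM in LP, and 27.9 and 45.0 CPM in ML cells of estrus and diestrus. Basal and luminal values did not overlap. Odc1 was lower in LP than in basal cells (log2 difference -1.22, SE 0.21, edgeR adjusted p = 0.000599) and lower in ML cells (-2.06, SE 0.21, adjusted p = 6.2e-06). With puberty in place of diestrus the difference from LP was -2.36; puberty had both a higher basal and a lower LP value than diestrus. The puberty library had 262, 29.8 and 32.4 CPM in basal, LP and ML cells.

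Azin1 was 69.3 and 47.5 CPM in basal, 22.9 and 22.4 CPM in LP and 10.5 CPM in ML cells of both adult libraries. It therefore stepped down from basal to LP to ML cells with no overlap. The log2 differences were -1.19 (SE 0.22, edgeR adjusted p = 0.000977) for LP and -2.42 (SE 0.23, adjusted p = 3.1e-06) for ML against basal cells, and -1.22 (SE 0.26, adjusted p = 0.00321) for ML against LP cells. Oaz1, the antizyme itself, was 2330 and 2706 CPM in basal, 1772 and 1928 CPM in LP and 1774 and 2199 CPM in ML cells. No comparison of Oaz1 passed the threshold (log2 differences -0.31 to -0.01).

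Amd1, which supplies the aminopropyl donor, and the synthases Sms and Srm that use it were arranged differently. Amd1 was 57.2 and 69.7 CPM in basal, 29.4 and 42.2 CPM in LP and 68.5 and 125 CPM in ML cells of estrus and diestrus. It was higher in ML than in LP cells (log2 difference 1.32, SE 0.21, edgeR adjusted p = 0.00044), and with puberty in place of diestrus the difference was 0.83. Sms was 31.2 and 46.7 CPM in basal, 14.7 and 21.7 CPM in LP and 38.7 and 46.7 CPM in ML cells. It was higher in ML than in LP cells (1.15, SE 0.22, adjusted p = 0.00171). Its lower level in LP than in basal cells (-0.96, SE 0.22, adjusted p = 0.0041) was no longer called in 6 of 12 alternatives. Among these were puberty in place of estrus (edgeR adjusted p = 0.0101) and puberty in place of diestrus (adjusted p = 0.0156).

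Srm was 115 and 206 CPM in basal, 81.1 and 129 CPM in LP and 59.7 and 117 CPM in ML cells. The ranges overlapped across the libraries, and within each library basal cells were highest. Srm was lower in ML than in basal cells (log2 difference -0.83, SE 0.17, edgeR adjusted p = 0.0017). The 3′ end of Amd1 shares 98.7% of its 50-base words with another gene, Amd2, so the division of counts between the pair is uncertain. Amd2 had 1.10 to 11.8 CPM in these classes. Oaz1 shares 36.6% with Oaz1-ps, and Odc1 shares 17.7% with Gm7993.

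Sat1, the acetyltransferase that starts polyamine breakdown and export, was highest in LP cells. It was 246 and 108 CPM in basal, 541 and 615 CPM in LP and 276 and 242 CPM in ML cells of estrus and diestrus. LP values lay above all others, and basal and ML values overlapped. Sat1 was higher in LP than in basal cells (log2 difference 1.94, SE 0.24, edgeR adjusted p = 5.5e-05) and lower in ML than in LP cells (-1.28, SE 0.24, adjusted p = 0.00142). The puberty library had 158, 830 and 332 CPM in basal, LP and ML cells. Sat1 was also uneven among luminal cells. A UMI was present in 52.9 to 62.4% of LP cells of the 3 libraries, where genes of like level were present in a median of 75.3 to 82.7%. In basal cells Sat1 was in 32.0 to 46.7% of cells against medians of 32.0 to 46.5%.

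Smox, the spermine oxidase, had no fixed lineage. It was 23.5 and 26.8 CPM in basal, 18.5 and 26.4 CPM in LP and 5.37 and 26.3 CPM in ML cells of estrus and diestrus, and no adult comparison was called (log2 differences -0.78 to -0.08). In puberty it was 51.6 CPM in basal, 87.4 CPM in LP and 7.36 CPM in ML cells. With puberty in place of diestrus, Smox was lower in ML than in basal (log2 difference -2.58) and LP cells (-3.24). The ML clusters of diestrus differed in Smox. Cluster 4 (287 cells) had 71 Smox UMIs (45.9 CPM), against 20.97 CPM in the cycling cluster and 2.48 CPM in the third. Cluster 4 was led over the other ML clusters by Sult1a1, Agtr1a, Hepacam2, Tnfsf11 (the RANK ligand), the haemoglobin gene Hba-a1 and Sult5a1.

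**Figure D3:**
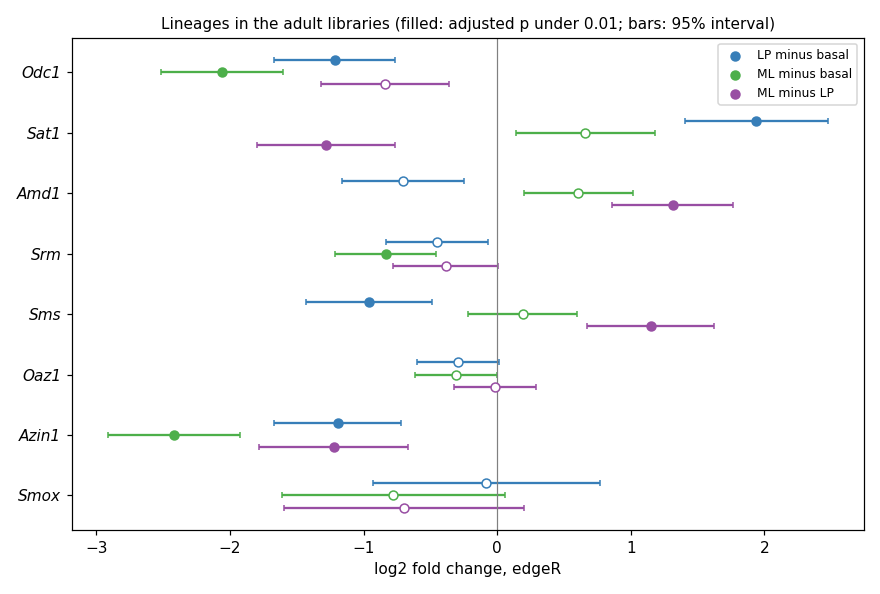
Log2 fold change from edgeR (x axis) for the 8 tested genes (y axis) between lineages of the adult libraries, with 95% intervals and filled points for an adjusted p under 0.01. Odc1 and Azin1 lay below 0 for LP and ML against basal cells, Sat1 lay at 1.94 for LP against basal cells, and no Oaz1 or Smox point was filled.

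Other genes of the pathway were taken from a list of 40, of which 30 were tested. Between basal and LP cells 9 were called (2 higher and 7 lower in LP, against 24.6% of all genes tested), between basal and ML cells 14 (46.7%; 5 higher and 9 lower in ML, against 34.7%) and between LP and ML cells 8 (26.7%; 5 higher and 3 lower in ML, against 18.9%). The arginases, which make the ornithine that Odc1 uses, were ML genes. Arg1 was 263 and 261 CPM in ML cells of estrus and diestrus, 19.6 and 4.41 CPM in LP cells and 1.37 and 1.48 CPM in basal cells. Arg2 was 356 and 488 CPM in ML, 8.71 and 13.2 CPM in LP and 10.9 and 4.64 CPM in basal cells. Both were higher in ML than in basal cells (log2 differences 7.55, SE 0.45, and 5.80, SE 0.32; edgeR adjusted p = 5.4e-08 and 2.8e-08). Oat, which turns ornithine to glutamate semialdehyde, was lowest in LP cells (29.4 and 23.9 CPM against 196 and 167 CPM in basal and 137 and 84.1 CPM in ML cells). Unlike Oaz1, the antizyme Oaz2 was lower in LP than in basal cells (log2 difference -1.15, SE 0.17, edgeR adjusted p = 0.000162). Azin2 was also lower there (-2.20, adjusted p = 0.00794), and Mat2b was higher (0.75, adjusted p = 0.00375). Ahcy was lower in ML than in basal cells (-1.27, adjusted p = 0.00499).

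Among the other amine oxidases, Aoc3 had 81 and 31 UMIs in basal cells of estrus and diestrus, and in LP and ML cells it had 1 UMI in all. Maob, a mitochondrial monoamine oxidase, had 23 and 21 UMIs in basal and 1 in ML cells of each library. Both were lower in ML than in basal cells (edgeR adjusted p = 2.4e-05 and 0.00141). Maoa was not highest in basal cells, with log2 differences from basal of -0.87 in LP and 0.43 in ML cells. Neither was called (edgeR adjusted p = 0.0216 and 0.1445). Of the 3 tested genes of this group, 1 (Maoa) was called higher in ML than in LP cells. The histamine enzymes Hdc and Hnmt had 11 UMIs or fewer in each adult class. Of the Myc family, which controls Odc1 transcription in many cells, Myc was 519 and 242 CPM in basal, 205 and 99.1 CPM in LP and 41.1 and 44.1 CPM in ML cells, with a log2 difference of -2.99 (SE 0.28, adjusted p = 2.8e-06) for ML against basal cells. Mycl was 21.5 and 10.8 CPM in ML cells, and it had 0 and 3 UMIs in LP cells. Mycn was lower in LP than in basal cells (log2 difference -4.98, SE 0.88, edgeR adjusted p = 0.000992).

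Polyamine synthesis is known to rise as cells divide, and cycling cells (at least 3 of 10 cell cycle genes) were compared with the other cells of the same lineage over 3 libraries. Of the 8 genes, 2 were called in basal cells (13.0% of 9363 genes were called), 2 in LP cells (16.2% of 7521) and 5 in ML cells (22.0% of 8847). Cycling cells were deeper, with a median of 6890 to 10488 UMIs against 2481 to 4510 in other cells. After thinning to 2000 UMIs, the same number was called in basal cells, and Srm was no longer called in ML cells. Without the block on library none of the 8 was called in any lineage.

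Odc1 was higher in cycling cells in all 9 pairs of sums. In basal cells it was 356, 351 and 225 CPM in cycling cells of puberty, estrus and diestrus and 234, 107 and 129 CPM in the others (log2 difference 0.92, SE 0.20, edgeR adjusted p = 0.00382). The basal ranges overlapped across libraries. Without estrus the difference fell to 0.57 (edgeR adjusted p = 0.0444). Cycling ML cells had 54.4, 63.8 and 94.95 CPM against 28.1, 20.5 and 32.0 CPM (1.27, SE 0.18, adjusted p = 7.9e-07), and the groups did not overlap. In LP cells the difference of 0.63 did not pass (adjusted p = 0.1).

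For the chain-extending synthases, 3 of 6 tests of cycling cells were called, all higher in cycling cells. Srm was 154, 184 and 196 CPM in cycling LP cells of puberty, estrus and diestrus and 89.7, 66.9 and 98.5 CPM in the others. In ML cells it was 117, 82.5 and 190 CPM against 77.8, 54.9 and 97.9 CPM, and the ranges overlapped. Srm was higher in cycling LP cells (log2 difference 0.74, SE 0.17, edgeR adjusted p = 0.00307) and ML cells (0.67, SE 0.13, adjusted p = 0.00018), and neither call held without diestrus (adjusted p = 0.0331 and 0.0228). The LP call was lost in 6 of 12 alternatives. Its difference of 0.76 in basal cells had an adjusted p of 0.0106, and those of Sms in basal (0.81) and LP cells (0.67) had an adjusted p of 0.0131 and 0.118. Sms was higher in cycling ML cells, at 89.1, 77.8 and 72.3 CPM against 52.5, 30.5 and 40.1 CPM (0.89, SE 0.16, adjusted p = 3.4e-05). Amd1 went the other way in ML cells, at 50.7, 37.4 and 87.9 CPM in cycling cells against 89.6, 75.0 and 135 CPM in the others (-0.83, SE 0.15, edgeR adjusted p = 3.8e-05). The Amd1 ranges overlapped across libraries, and within each library cycling cells were lower. Aoc1 in puberty ML cells was 75.3 CPM in cycling and 106 CPM in other cells, which is a single pair without a test.

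Sat1 moved in opposite directions in basal and luminal cells. In basal cells it was 106, 86.0 and 67.2 CPM in cycling cells of puberty, estrus and diestrus against 173, 271 and 132 CPM in the others (log2 difference -1.20, SE 0.19, edgeR adjusted p = 0.000345). In LP cells it was 2008, 1829 and 846 CPM against 645, 363 and 511 CPM (1.29, SE 0.19, adjusted p = 4.9e-05). The ML values were 475, 483 and 367 CPM against 304, 233 and 209 CPM (0.79, SE 0.10, adjusted p = 3.5e-07). Cycling and other cells did not overlap in any of the 3 lineages. The difference between lineages was tested itself, in a model chosen after these opposite directions were seen. It was 2.36 between LP and basal cells (SE 0.28, adjusted p = 5.0e-05) and 1.84 between ML and basal cells (SE 0.28, adjusted p = 0.00109), where 0.242% and 0.455% of 10337 genes were called. It was -0.53 between ML and LP cells (95% interval -1.06 to 0.01, adjusted p = 0.567), where 0.164% were called. When Mki67 alone marked cycling cells, the LP difference was 0.44 and no longer called (adjusted p = 0.069), and the difference between LP and basal cells was 1.55 (adjusted p = 0.000408).

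**Figure D4:**
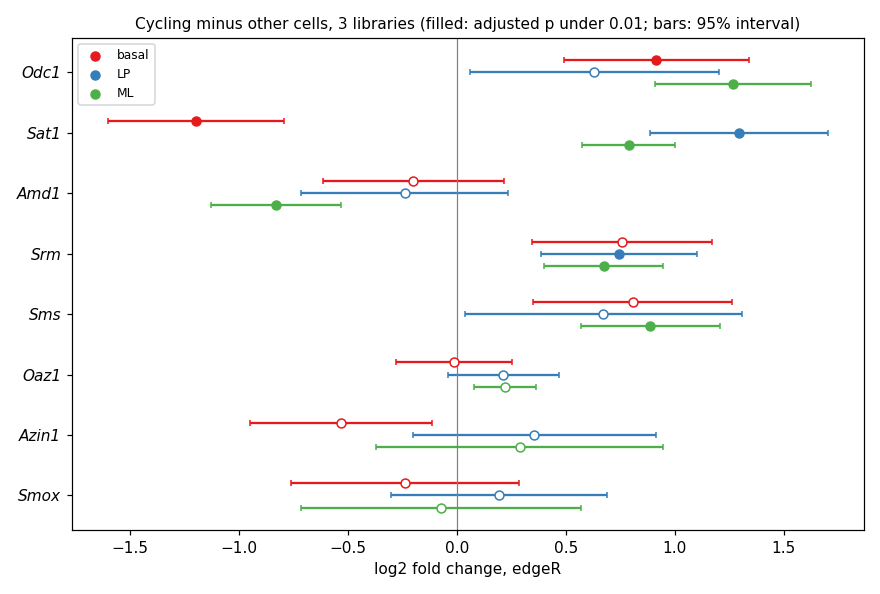
Log2 fold change from edgeR between cycling and other cells (x axis) for the 8 tested genes (y axis) in basal, LP and ML cells, with 95% intervals and filled points for an adjusted p under 0.01. Odc1, Srm and Sms lay above 0 in every lineage, Amd1 lay at -0.83 in ML cells, and Sat1 lay at -1.20 in basal cells and above 0 in LP and ML cells.

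Among the other pathway genes, 3 of 28 tested were called in basal cells (10.7%, against 13.0% of all genes), 3 of 22 in LP (13.6%, against 16.2%) and 8 of 26 in ML cells (30.8%, against 22.0%). Eif5a, the translation factor that carries the spermidine-derived amino acid hypusine, was higher in cycling LP (log2 difference 0.62, SE 0.14, edgeR adjusted p = 0.00271) and ML cells (0.66, SE 0.08, adjusted p = 8.4e-08). Mtap, which recycles the by-product of spermidine and spermine synthesis, was higher in cycling basal (1.26, adjusted p = 0.000332) and ML cells (0.87, adjusted p = 0.0043). Arg1 was lower in cycling ML cells (-1.28, SE 0.13, adjusted p = 3.3e-09), and Myc was lower in cycling basal (-1.36, adjusted p = 2.1e-05) and LP cells (-1.28, adjusted p = 1.2e-05).

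Between the phases of the adult cycle, with 1 library each and no test, most members stood higher in diestrus. Values were scaled for composition within a class, and a gene with at least 10 CPM was counted when it was 2-fold apart. In ML cells 3 of 8 members with this level were 2-fold higher in diestrus and none was lower (6.57% of 7075 genes were 2-fold apart in either direction). These were Smox (26.7 against 4.798 scaled CPM, log2 ratio 2.26, counting interval 1.76 to 3.25), Srm (119 against 53.3, 1.14, 0.91 to 1.40) and Amd1 (127 against 61.2, 1.04, 0.83 to 1.29). Amd1 was under 2-fold without composition scaling (0.86), in thinned cells (0.80), with a pseudocount of 5 CPM (0.998) and in Leiden clusters (0.996), and Srm was under 2-fold without composition scaling (0.96). Thinned cells added Odc1 (1.18) and Sms (1.22). In LP cells 1 member, Odc1, was 2-fold higher in diestrus (82.9 against 34.1, 1.26, 0.88 to 1.69; 11.8% of 7009 genes were 2-fold apart). In basal cells 1 member, Sat1, was 2-fold lower in diestrus (110 against 226, -1.03, -1.19 to -0.88; 9.65% of 7360 genes were 2-fold apart), and Srm was at 0.98. The median log2 ratio of the members was 0.35, 0.49 and 0.65 in basal, LP and ML cells, against 0.03, 0.00 and -0.02 for all genes with this level. Diestrus had more cycling cells (211 of 1050 basal and 97 of 564 LP cells) than estrus (63 of 1306 and 23 of 473). With cycling cells left out Srm in basal cells was at 1.06 and Sat1 at -0.91.

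Between puberty and both adult libraries, Smox in LP cells stood apart from the members other than Aoc1. It was 100.1 scaled CPM in puberty against 17.3 in estrus and 24.7 in diestrus, with log2 ratios of 2.46 (counting interval 2.03 to 3.07) and 1.98 (1.67 to 2.39), where 2.37% of 6662 genes were 2-fold apart from both in the same direction. In basal cells 0 of 8 members passed against both (3.29% of 7208 genes did). Smox there was 55.2 against 21.6 and 27.3 (1.31 and 0.99), and it passed 2-fold against both in the shallower puberty table (1.05). In ML cells it was 8.13 against 4.798 and 26.7. Odc1 in basal cells was 280 in puberty against 128 and 167 (1.12 and 0.75). In LP cells it was 34.1 against 34.1 and 82.9, so diestrus was the library that differed. In ML cells Aoc1 was the 1 member 2-fold higher than in both adult libraries, which its choice had fixed (2.65% of 6872 genes were 2-fold apart from both).

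**Figure D5:**
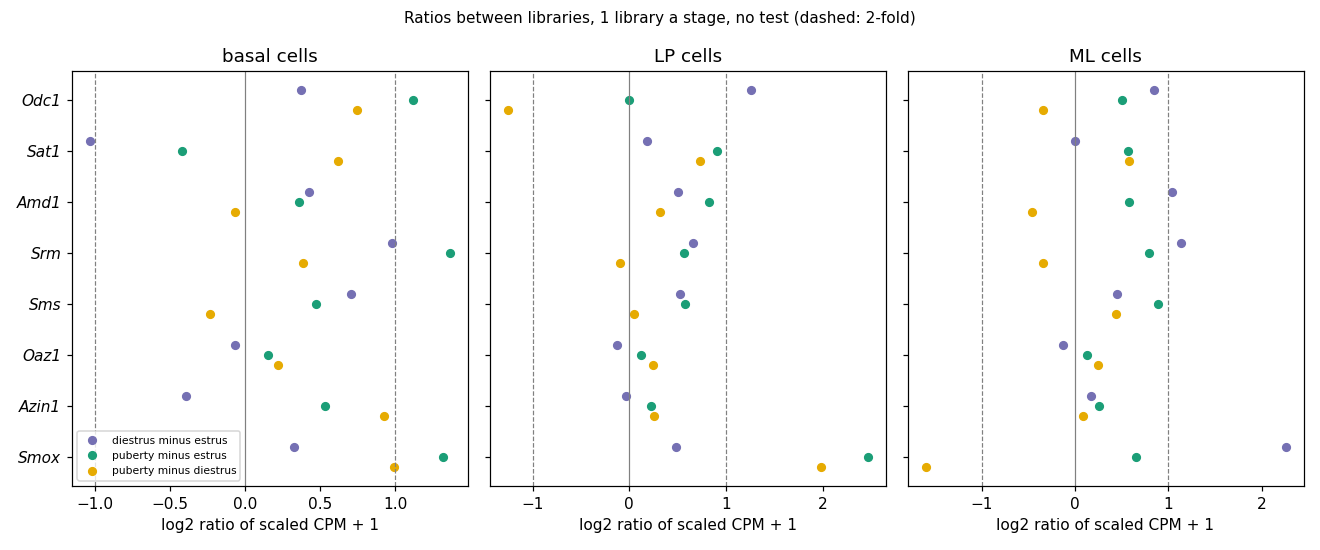
Log2 ratio of composition-scaled CPM plus 1 between libraries (x axis) for the 8 genes other than Aoc1 (y axis) in basal, LP and ML cells, with dashed lines at 2-fold and no test, since there was 1 library a stage. Smox in LP cells of puberty stood 2.46 and 1.98 above estrus and diestrus, and in ML cells diestrus stood 2.26 above estrus.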

How the data were processed

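The deposited values were counts: the authors sequenced 10X libraries on a NextSeq 500 and made a table of UMI counts per gene and cell barcode with Cell Ranger 2.0 on mm10, without normalization. The authors' barcodes were used as deposited, and the labels give 5387, 2439 and 2729 cells for puberty, diestrus and estrus. No doublet caller was run. The members, gene lists and tests were chosen with earlier results of these data known.

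Cells scoring at least 1 SD higher for 1 of 3 sets of 8 markers seeded signatures of up to 100 genes, 2-fold higher and in at least 10% of seeds in every library. Each cell was placed between the seed medians with borders at 1/3 and 2/3 of the distance. Cells that carried 3 or more of the 5 genes listed for leukocytes, endothelium or fibroblasts, with more such UMIs than keratin UMIs, were set aside (43 in all). Cells within 0.05 of a border were 2.06 to 2.55%. Leiden clusters (scanpy 1.11.5; 2000 variable genes, 30 components, resolution 1) left out the polyamine genes too and were named by the markers.

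UMIs were summed by library and class. Sums were tested in edgeR 4.0.16 (R 4.3.3; TMM, filterByExpr, quasi-likelihood, Benjamini-Hochberg over all genes, adjusted p under 0.01), with the library as a block. Lineages were tested in 6 sums of the adult libraries, cycling cells in 6 sums per lineage, and the difference between lineages in 18 sums, a test added after the data were seen. These 18 sums came from the same 3 libraries, with a block for each lineage of a library. Cycling differences of lineages from the same library were thus treated as independent. Blocks remove differences in level between libraries, so p-values rest on how a class or cycling difference varied between libraries of pooled mice. With so few sums, edgeR's estimate of this spread for a gene is drawn in large part from all genes tested. The p-values therefore do not measure the spread of that gene alone. Each of these libraries was a different stage without a replicate. Stages were compared as log2 of TMM-scaled CPM plus a pseudocount of 1. Shares carry 95% Wilson intervals, and a share of 0 is limited at 3 counts. DESeq2 1.42.0 and the other alternatives are described with the closing section. Named genes were the members, the histamine enzymes, the 5 genes most like Aoc1 and a part of the pathway genes called in a test. The remaining called pathway genes are given as counts. Coordinates are from GENCODE M21 and RefSeq on GRCm38. The 50-base words of the last 500 bases of each longest coding transcript were looked up in all transcripts. Protein sequences were not used here.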

Additional observations from a re-analysis of the deposited data

Results flagged for a closer look

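The difference of Sat1 between cycling and other cells was larger in LP than in basal cells by 2.36 on the log2 scale and larger in ML than in basal cells by 1.84, by the test of the difference itself in edgeR (adjusted p = 5.0e-05 and 0.00109). In each of the 3 libraries Sat1 was lower in cycling basal cells and higher in cycling LP and ML cells. The model was chosen after the opposite directions were seen. Only 6 alternatives were run for these differences, against 12 for the other fits, including cells thinned to 2000 UMIs and each library left out. Over these 6 the differences ranged from 1.55 to 3.02 and from 1.57 to 2.23, and all were called. A fit without a block, DESeq2 and the filters on cell quality and cell totals were not among them.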

How the results depend on the processing

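Most results kept their direction and their side of the threshold: no alternative reversed a value, and of the values for single genes 41 fell below the threshold and 18 rose past it. Without the library block the members called fell from 4, 3 and 4 to 0 between basal and LP cells, 1 between basal and ML cells and 0 between LP and ML cells, and to 0 in each cycling comparison. At an adjusted p under 0.05, 5 were called between basal and ML cells and 4 between cycling and other basal cells, and with no filter on low counts 6 and 4. DESeq2 called 2 between LP and ML cells and 1 in cycling LP cells. Thinned cells gave 2 between LP and ML cells and 0 between the adult phases in LP cells, and 4 in place of 3 in ML cells (Amd1 lost, Odc1 and Sms gained). Keeping cells of 1000 or more genes with less than 10% of UMIs from mitochondrial genes gave 1 in cycling basal cells, 1 in cycling LP cells and 1 between puberty and both adult libraries in basal cells. Leaving out the 5% of cells with the highest totals gave 1 in cycling LP cells, 2 between the adult phases in basal cells and 1 between puberty and both adult libraries in basal cells. Mki67 alone gave 0 in cycling LP cells, Leiden clusters gave 0 and total counts 1 between the adult phases in basal and ML cells, respectively. The shallower puberty table, and the sum of both, gave 1 (Smox) between puberty and both adult libraries in basal cells. With each library left out, 1 to 3 were called in cycling basal cells (1 without estrus) and 1 to 2 in cycling LP cells (1 without diestrus). With puberty in place of an adult library, 3 to 4, 4 and 4 to 5 were called between lineages. The causes were not tested. No paired analysis was possible because the labels number replicates only for the puberty library, whose 2 tables are the same cells, so no number pairs samples between groups; class sums of 1 library were paired by the library block of each fit. With 1 library a stage, no stage difference could be tested, and the adult ML sums of 4 and 10 Aoc1 UMIs limit any comparison between estrus and diestrus.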
